A study of Mus musculus with 20 samples.

Results

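Transcripts that stood high in the mouse oocyte, low in the 1-cell embryo and high again in the 2-cell embryo were collected from 20 Affymetrix MOE430B arrays. A probe set, the group of oligonucleotides that reports one transcript, was a member where its stage mean of log2(intensity + 20) was at least 1.5 higher in the oocyte than at the 1-cell stage and also at least 1.5 higher at the 2-cell stage than at the 1-cell stage. Among 14661 probe sets with exactly 1 gene symbol, 48 met both limits, 0.327% of them, and they stand for 48 genes of 9607. The members were thus chosen by the intensities of the oocyte, 1-cell and 2-cell arrays, and every value from those 12 arrays is given as a description without a test. The study covers 5 stages with 4 arrays each: the oocyte, the 1-cell embryo, the 2-cell embryo, the 8-cell embryo and the blastocyst. All samples are mouse total RNA, amplified in 2 rounds of in vitro transcription, and the labels used here give no strain, age or treatment for any stage, and a number of cells per embryo only through the stage names 1-cell, 2-cell and 8-cell. Whether the 4 replicates of a stage are independent embryo pools is not stated, so a p-value reflects no more than the spread among these arrays, and that spread may be technical.

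An oocyte carries a store of messenger RNA made before ovulation and is transcriptionally silent when it is fertilised. Many of these stored messages are deadenylated or degraded during maturation and after fertilisation, while others are kept dormant with short poly(A) tails and lengthened later. The embryonic genome of the mouse starts to be transcribed weakly in the 1-cell embryo and strongly in the 2-cell embryo. A message that is high, low and high again over these stages therefore spans the change from maternal to embryonic supply. Amplification by in vitro transcription usually primes on the poly(A) tail, so a change in tail length and a change in the amount of a message cannot be told apart in such values. The authors had scaled every array to a common mean, so an intensity is a share of the array's signal, not an amount per embryo.

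The promoters of the 4 members with the deepest dip that have an entry in the RefSeq promoter table are printed first. The members stood high again at the stage when the embryonic genome is strongly transcribed, but the part of new transcription in that return was not tested. Depth is the smaller of both log2 differences. Each run is the 250 bases before the first listed transcription start, read 5′ to 3′ on the coding strand (build GRCm38.p6). Capitals mark matches, on either strand, to 8 short motifs that are spelled out with their shares in the next paragraph. The regions are chr11:101095436-101095685 for Psmc3ip, chr19:45006443-45006692 for Mrpl43, chr17:33940344-33940593 for Pfdn6 and chr10:80590342-80590591 for Abhd17a, all on the minus strand.
Psmc3ip: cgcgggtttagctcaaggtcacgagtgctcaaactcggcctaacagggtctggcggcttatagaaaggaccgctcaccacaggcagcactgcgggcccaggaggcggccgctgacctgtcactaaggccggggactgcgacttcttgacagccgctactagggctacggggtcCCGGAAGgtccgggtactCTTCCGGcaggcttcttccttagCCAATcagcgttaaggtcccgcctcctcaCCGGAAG
Mrpl43: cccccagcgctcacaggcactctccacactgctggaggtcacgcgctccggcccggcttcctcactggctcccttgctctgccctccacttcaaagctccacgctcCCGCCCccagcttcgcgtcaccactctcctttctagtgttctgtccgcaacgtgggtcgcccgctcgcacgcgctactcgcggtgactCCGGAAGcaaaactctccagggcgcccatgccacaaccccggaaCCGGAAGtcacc
Pfdn6: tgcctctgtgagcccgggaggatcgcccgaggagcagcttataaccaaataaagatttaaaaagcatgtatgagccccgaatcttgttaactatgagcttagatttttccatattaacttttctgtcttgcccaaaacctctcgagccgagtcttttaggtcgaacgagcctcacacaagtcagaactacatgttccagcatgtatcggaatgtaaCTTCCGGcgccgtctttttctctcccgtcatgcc
Abhd17a: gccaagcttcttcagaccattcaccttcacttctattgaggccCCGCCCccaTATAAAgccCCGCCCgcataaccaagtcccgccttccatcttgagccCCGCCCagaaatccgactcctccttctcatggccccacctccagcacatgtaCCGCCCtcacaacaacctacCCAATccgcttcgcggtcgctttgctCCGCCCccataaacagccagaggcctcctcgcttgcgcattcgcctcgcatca
Psmc3ip holds 3 ETS matches, which lie 77, 59 and 7 bases before the start, and a CCAAT box 36 bases before it. Mrpl43 holds ETS matches 56 and 12 bases before the start, and Pfdn6 holds an ETS match 34 bases before it. The Abhd17a region has 5 GC box matches, a CCAAT box and a TATA box 198 bases before the start, and it has no ETS match. A match is a run of letters and says nothing of binding.

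Over all members, 41 of 48 genes had a promoter in the table. The ETS motif, CCGGAAG, occurred in 10 of the 41 members' promoters (24.4%) and in 10.4% of the promoters of 7533 genes on the array. They were in the promoters of Psmc3ip, Mrpl43, Pfdn6, Cggbp1, Sdhaf3, Snupn, Cnot10, Tmem120a, Uggt1 and Ska3. A GC box match, GGGCGG, was in 63.4% of the members' promoters, against 49.8% for the array's genes. The CCAAT box, spelled as its name, had a share of 31.7% for members and 35.3% for the array's genes. The TATA box, TATAAA, had 2.44% for members and 7.98% for the array's genes. The NRF1 letters, GCATGCGC, occurred in 4.88% of members' promoters and 3.74% of the array's. The YY1 letters, GCCATNTTG, occurred in 4.88% of members' promoters and 1.74% of the array's. For the CRE, TGACGTCA, the shares were 2.44% and 2.43% in the same order, and for the E-box, CACGTG, they were 4.88% and 7.46%. The median count of CG dinucleotides was 17 in the members' promoters and 13 in those of the array's genes, at GC contents of 58.4% and 58%. These shares were not tested, and the array's genes include dim ones that could not be members. No motif overlaps another in the printed runs.

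The dip was deep and was present on the single arrays of most members. At the 1-cell stage the members read between 3.82% and 37.9% of their oocyte mean, with a median of 19.9%. At the 2-cell stage they read between 24.7% and 1100.5% of the oocyte mean, with a median of 110.9%. The median intensity over the 48 members was 384.7 in oocytes, 67.2 in 1-cell embryos, 556.8 in 2-cell embryos, 820.6 in 8-cell embryos and 508.9 in blastocysts. On the log2 scale the members' median was 8.65, 6.25, 9.14, 9.69 and 8.95 over these stages, while that of all 15234 tested probe sets stayed between 7.13 and 7.34. All 4 1-cell arrays lay below all 4 oocyte and all 4 2-cell arrays for 44 of the 48, against 1.86% of all single-symbol probe sets. The exceptions were Mrps10, Trim41, Epha10 and Btaf1. For 30 members the 1-cell arrays lay below all 16 other arrays, against 1.11% of single-symbol probe sets. The arrays that chose the members also give these counts, so nothing is read from their distance to the shares of all probe sets.

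**Figure D1:**
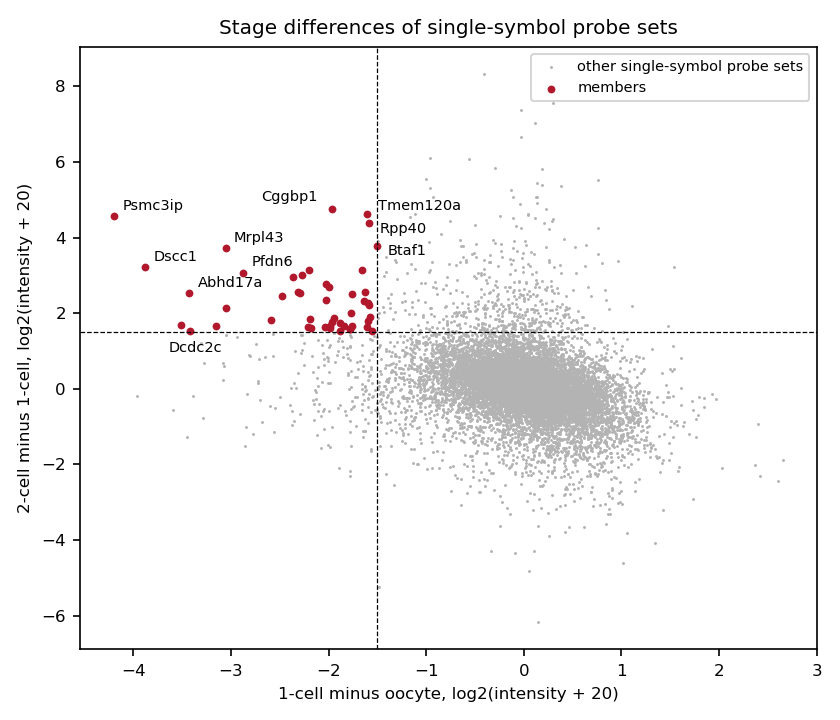
Each point is a probe set with 1 gene symbol, placed by its 1-cell minus oocyte difference on the x axis and its 2-cell minus 1-cell difference on the y axis, both in log2(intensity + 20) units. The 48 members (red) fill the upper left corner beyond the dashed limits of 1.5, with Psmc3ip farthest left and Cggbp1 and Tmem120a at the top.

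The members formed a small part of both movements that chose them. Of 226 single-symbol probe sets that were at least 1.5 lower at the 1-cell stage than in the oocyte, 48 (21.2%) came back by at least 1.5, 66 came back by 0.5 to 1.5, and 112 came back by less than 0.5 or not at all. Of 573 probe sets that were at least 1.5 higher at the 2-cell stage than at the 1-cell stage, 8.38% had been at least 1.5 higher in the oocyte. The same pair of limits around the 1-cell stage found 9 peaks beside the 48 dips. Around the 2-cell stage it found 18 dips and 91 peaks, and around the 8-cell stage 71 dips and 65 peaks. Members were not drawn evenly from the range of oocyte levels, since the limits cannot be met from a low start: none of 5022 probe sets with an oocyte mean under 6 on the log2 scale was a member, against 0.238% between 6 and 8, 0.749% between 8 and 10 and 1.78% above 10.

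DNA replication and repair genes held the deepest dips of all members. Psmc3ip, also known as Hop2, is a partner of the recombinases that pair homologous DNA in meiosis. Its probe set 1442058_s_at read 1196, 956, 1189 and 1784.5 on the 4 oocyte arrays, 43.8, 18.5, 82 and 71 on the 1-cell arrays and 1376.5, 1304, 2112 and 1802 on the 2-cell arrays. The highest 1-cell array, at 82, compares with a lowest oocyte array of 956.3 and a lowest 2-cell array of 1303.7. Dscc1, a subunit of the alternative clamp loader that works with Ctf18, read 835, 623, 695 and 942.5 in oocytes, 4.3, 70.5, 59.4 and 26.6 in 1-cell embryos and 483, 458, 508 and 466 in 2-cell embryos. The 2-cell arrays of Dscc1 were close to each other and stood below all oocyte arrays. Ercc1, the partner of the Xpf nuclease in nucleotide excision repair, read 533, 399.7, 833 and 513 in oocytes, 61.1, 138, 164 and 80 in 1-cell embryos and 896, 1259, 1464 and 835 in 2-cell embryos. Its 2-cell arrays all stood above its oocyte arrays. The list of DNA replication and repair genes had 4 members among 70 measured genes, 5.71%, where members made up 0.5% of all genes measured. The remaining one was Rfc2, a subunit of the replication clamp loader, whose probe set is of the x_at type, which can bind other transcripts. The share of 5.71% was not tested. All genes measured include dim ones that cannot meet the limits, and the lists were chosen with earlier results of these data known.

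Mitochondrial genes supplied members of several kinds. The list of mitochondrial ribosome and respiratory chain genes held 4 members among 60 measured genes, 6.67%, a share that was not tested either. They were Mrpl43, Mrps6 and Mrps10, which are proteins of the large and small mitochondrial ribosomal subunits, and Sdhaf3, which helps to assemble succinate dehydrogenase. Mrpl43 read 386, 392, 353 and 347 in oocytes, 17.4, 37.7, 22.4 and 32.6 in 1-cell embryos and 525.5, 494, 774 and 652 in 2-cell embryos. It then stood at 1691, 1972, 1318 and 1386 on the 8-cell arrays and 2215, 1944, 1393 and 1397 on the blastocyst arrays. The stages after the 1-cell embryo all stood above the oocyte for Mrpl43. Sdhaf3 took another course, with stage means of 663 ± 53.7 in oocytes, 159 ± 30.1 in 1-cell embryos, 646 ± 184 in 2-cell embryos, 199.9 ± 42 in 8-cell embryos and 292.5 ± 79.4 in blastocysts (SD, n = 4 each). Its 8-cell arrays overlapped its 1-cell arrays.

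Mrps10 read 82.1, 80.4, 103 and 49.1 on the oocyte arrays, 6.7, 3.9, 6.2 and 19.7 on the 1-cell arrays and 60.5, 19.4, 128.5 and 124 on the 2-cell arrays. One 2-cell array, replicate 2, lay within the range of the 1-cell arrays. On the 8-cell arrays Mrps10 read 910.1, 753, 974 and 789, the largest 8-cell minus 2-cell difference of any member, 3.26. Mrps6 had stage means of 1329.8 ± 277, 426 ± 40.2, 2082 ± 389.6, 3207 ± 601 and 2675 ± 654 from oocyte to blastocyst (SD, n = 4 each). Outside the list, Dhtkd1, a mitochondrial dehydrogenase subunit of lysine breakdown, read 823, 294, 572 and 425.5 in oocytes, 165, 56.1, 30.3 and 119 in 1-cell embryos and 550, 788, 1117 and 658.5 in 2-cell embryos. Naxe, which repairs damaged NADH and NADPH, read 1692, 1805, 1951 and 1853 in oocytes, 408, 351, 316 and 499 in 1-cell embryos and 1148, 1120.4, 1360.5 and 1313 in 2-cell embryos. Its oocyte, 1-cell and 2-cell arrays formed 3 ranges without overlap, with the 2-cell arrays in the middle.

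The members of protein synthesis and folding described here returned with little loss, Eif4h excepted. Of the translation factors and chaperones measured, 2 of 93 genes were members. Rpl22, a protein of the large cytosolic ribosomal subunit, read 5198, 4743, 4910.2 and 6872 in oocytes, 815, 879, 1206 and 944 in 1-cell embryos and 5074, 5420.3, 6429 and 4491 in 2-cell embryos. The 2-cell range of Rpl22 overlapped its oocyte range. It reached 43505, 40945, 32632 and 28987 on the 8-cell arrays, 6.72 times the oocyte mean. Pfdn6, a subunit of the prefoldin chaperone that hands actin and tubulin to the folding machinery, read 1630.5, 1823.5, 2108.5 and 1783 in oocytes, 176.5, 223, 261 and 282 in 1-cell embryos and 1794, 1733, 2571 and 2441 in 2-cell embryos. Eif4h, a partner of the eIF4A helicase in translation initiation, had a wider spread, with 576, 268, 693 and 509 in oocytes, 57.7, 60.2, 22 and 32.4 in 1-cell embryos and 71.7, 199, 523 and 443 in 2-cell embryos. Its 2-cell replicate 1 stood just above the highest 1-cell array, and the other 2-cell arrays were well above it. Krr1 and Pum3 are nucleolar proteins of ribosome assembly. Krr1 had a stage mean of 1579.6 ± 64.3 in oocytes, 303 ± 41.8 in 1-cell embryos and 1896 ± 238 in 2-cell embryos, and Pum3 one of 3164 ± 402, 651 ± 232 and 3790.2 ± 1120.0 at those stages (SD, n = 4 each). Zfas1, a long non-coding RNA that hosts small nucleolar RNAs, had stage means of 288 ± 46.5, 62.2 ± 43.2 and 507 ± 140.3 over the same stages.

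**Figure D2:**
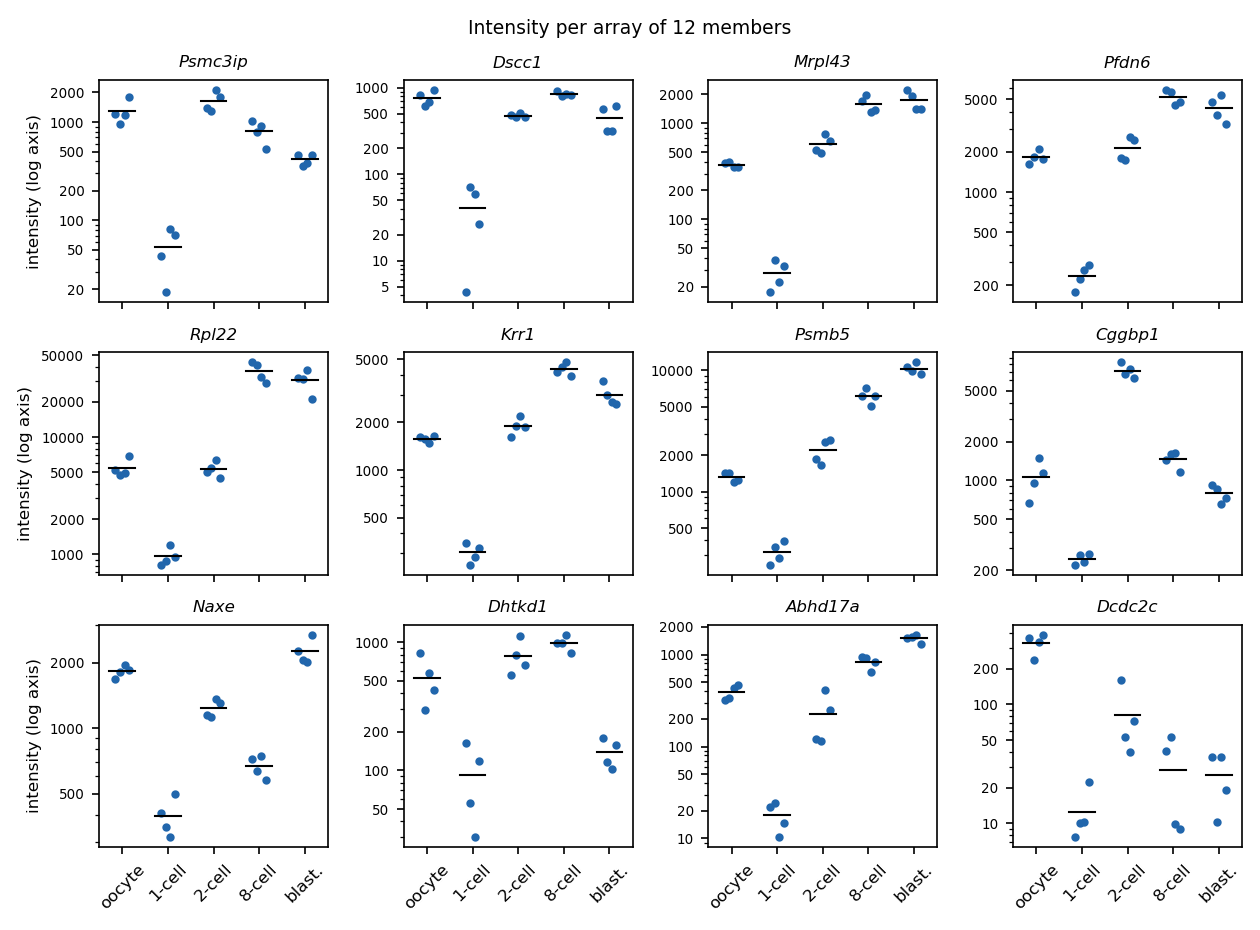
Intensity on each of the 20 arrays for 12 members, on log axes, by stage, with a black line at the stage mean (n = 4). In all 12 panels the 1-cell arrays lie below the oocyte and 2-cell arrays, and the panels part ways at the 8-cell and blastocyst stages.

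Members were also found in protein turnover and RNA metabolism. Psmb5, a catalytic subunit of the proteasome, read 1417, 1422, 1191 and 1238 in oocytes, 249, 348, 282.5 and 394 in 1-cell embryos and 1848, 1668, 2565 and 2668 in 2-cell embryos. All its 2-cell arrays stood above its oocyte arrays. Kctd6, an adaptor of the Cul3 ubiquitin ligase, had stage means of 522 ± 159, 136 ± 26.6 and 606 ± 106 (SD, n = 4 each), and the ubiquitin ligase Trim41 means of 231 ± 97, 77.2 ± 70.9 and 371 ± 95.9. Cnot10, a subunit of the CCR4-NOT deadenylase that removes poly(A) tails, read 1160.2, 1623, 1550.3 and 1285 in oocytes, 134, 175, 277 and 318 in 1-cell embryos and 943, 716.5, 781 and 819 in 2-cell embryos. Its 2-cell arrays all stood above the 1-cell arrays and below the oocyte arrays. Ipo9, an importin that carries cargo such as histones into the nucleus, had stage means of 258 ± 87.5, 59 ± 46.5 and 216 ± 55.6. Rpp40, a subunit of the RNase P complex that trims transfer RNA precursors, read 174, 128, 225 and 259 in oocytes, 29.7, 115, 18.2 and 74.7 in 1-cell embryos and 1342, 1448, 1582 and 1441 in 2-cell embryos. The lowest 2-cell array of Rpp40, at 1342, compares with a highest oocyte array of 258.6.

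Members with roles in transcription and chromatin included Btaf1, Cggbp1 and Nsd3. Btaf1, which removes the TATA-binding protein from DNA, met the limits by the smallest margin, with 280.5, 83, 268 and 219.7 in oocytes, 23.6, 81.6, 106 and 39.2 in 1-cell embryos and 476, 992, 1848 and 1207 in 2-cell embryos. Its oocyte replicate 2 lay below the highest 1-cell array. Cggbp1, a protein that binds CGG repeats, read 666, 949, 1489 and 1145 in oocytes, 221, 264, 232 and 269 in 1-cell embryos and 8281, 6735, 7319 and 6302 in 2-cell embryos. Its level was highest at the 2-cell stage, and the 8-cell arrays at 1443, 1611, 1638 and 1154 stood well below the 2-cell arrays. Nsd3, a histone H3 lysine methyltransferase, had stage means of 137 ± 13.4, 18.5 ± 5.54 and 101 ± 34.

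Members of membrane traffic and the cytoskeleton differed in depth. Abhd17a, an enzyme that removes palmitate from proteins, read 318, 335, 429 and 468 in oocytes, 21.8, 24.4, 10.4 and 14.8 in 1-cell embryos and 119.6, 116, 411 and 249 in 2-cell embryos. Its oocyte, 1-cell and 2-cell arrays overlapped only between 2-cell replicate 3 and the oocyte. Rab11fip1, an effector of Rab11 in endosome recycling, had stage means of 501 ± 81.6, 92 ± 38.4 and 851 ± 177 (SD, n = 4 each). Uggt1, the folding sensor for glycoproteins of the endoplasmic reticulum, had means of 370.0 ± 62.1, 80.3 ± 65.2 and 246 ± 84. Tmem120a, a transmembrane protein, read 67, 51.7, 77.8 and 64.8 in oocytes, 6.6, 9, 7.1 and 9.2 in 1-cell embryos and 376, 604, 1002 and 893 in 2-cell embryos, the highest ratio of 2-cell to oocyte of any member at 11. Map7d2, which binds microtubules, had means of 126 ± 13.6, 35 ± 40.1 and 278 ± 132, and its 1-cell replicate 3 at 94.7 stood far above the other 1-cell arrays. Dcdc2c, which has doublecortin domains, read 364, 236, 331 and 385 in oocytes, 7.7, 10.1, 10.2 and 22.3 in 1-cell embryos and 159.5, 53.1, 40.1 and 73.1 in 2-cell embryos. Its return was the most partial of all, to 24.7% of the oocyte mean.

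The other named members have varied roles. Smim4, a small membrane protein of the mitochondrion, had stage means of 208 ± 29.6, 47.9 ± 12.1 and 365 ± 55.4 over the oocyte, 1-cell and 2-cell stages (SD, n = 4 each). Iqcg, a protein of the motile cilium, had 65.7 ± 27.1, 6.15 ± 3.68 and 213 ± 51.2 at these stages. Pik3ip1, an inhibitor of PI3 kinase, had 202 ± 94, 41.2 ± 21.7 and 165 ± 33.2, and Wdr73, a WD-repeat protein, had 1026 ± 108, 389 ± 258 and 1041 ± 323. Epha10, an ephrin receptor that lacks kinase activity, had 188 ± 44.1, 56.8 ± 51.8 and 193 ± 53.1. The 13 members that the rule for named genes left out are listed here only so that every member is accounted for. They are the x_at probe sets of Rfc2, Snupn, Urod and Cotl1, the clone names E030030I06Rik and Gm14057, and Prorp, Cmss1, Oscp1, Cenpl, Glipr1, Ska3 and Brpf3. By type, 35 member probe sets end in _at, 8 in _s_at, 4 in _x_at and 1 in _a_at. Probe sets of the _s_at and _x_at types can bind more than 1 transcript, so their values are less certain for the gene named.

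The limits cut through a continuous range. Just inside them lay Btaf1 at a depth of 1.503, Dcdc2c at 1.53 and Wdr73 at 1.53, and just outside lay another probe set of Snupn, Lias and Lonrf3, each at 1.49. The deepest members were Psmc3ip at 4.20, Dscc1 at 3.22 and Mrpl43 at 3.05, and the median depth was 1.68.

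At the 2-cell stage most members stood at about their oocyte level, as most single-symbol probe sets did. For 40 of 48 members the 2-cell mean was within 1 of the oocyte mean on the log2 scale. It was at least 1 above for 5, where 7.84% of single-symbol probe sets were so, and at least 1 below for 3, where 7.31% were. The 5 above were Tmem120a (3.03), Rpp40 (2.81), Cggbp1 (2.78), Btaf1 (2.27) and Iqcg (1.48), as 2-cell minus oocyte. The 3 below were Dcdc2c (-1.89), E030030I06Rik (-1.82) and Urod (-1.49), the last an enzyme of heme synthesis. Both sides of this comparison come from arrays that chose the members, and nothing particular to the members is read from these counts.

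**Figure D3:**
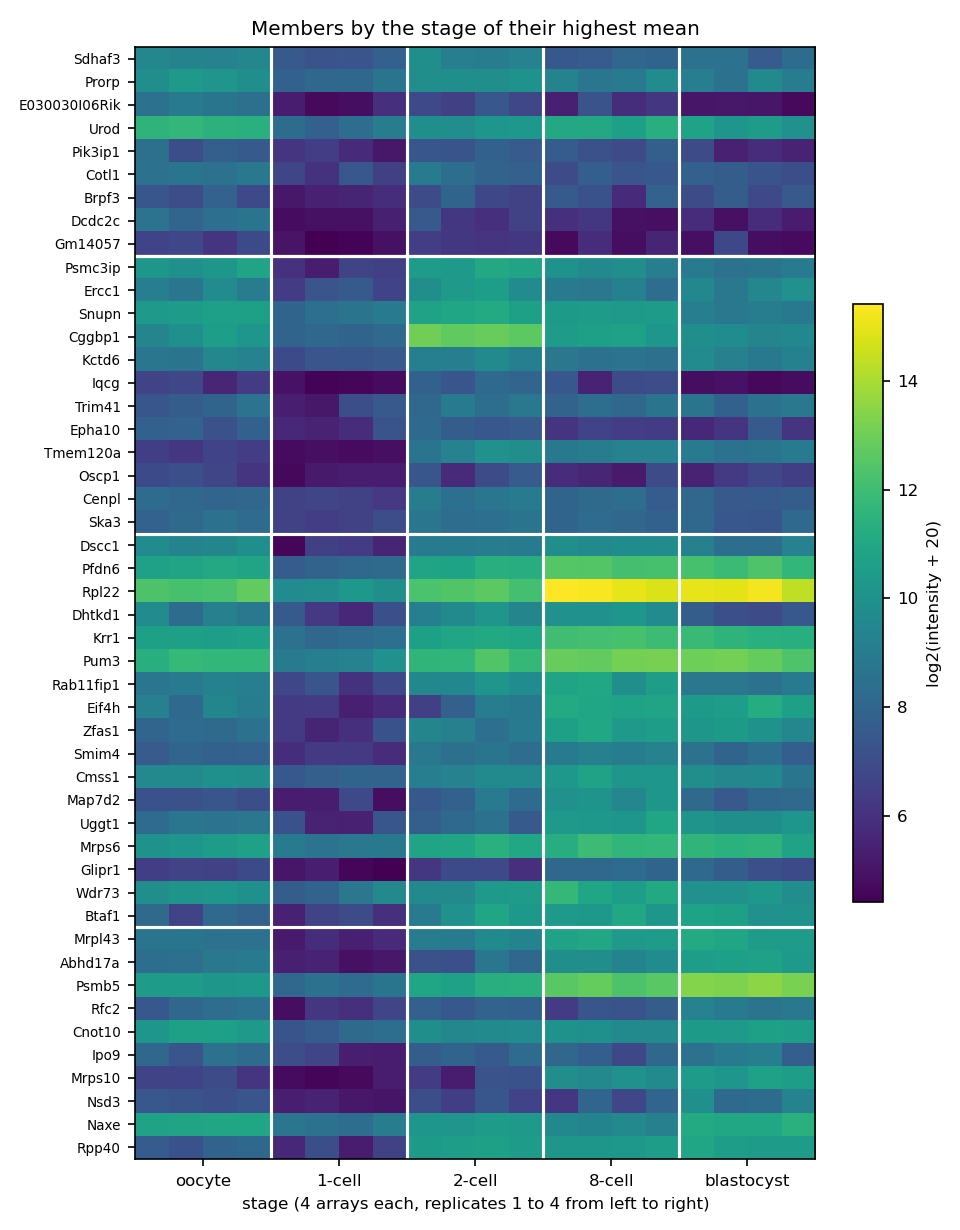
Intensity of the 48 members on each of the 20 arrays as log2(intensity + 20), dark for low and yellow for high. Columns are the 4 arrays of each stage, oocyte at the left and blastocyst at the right, and white lines part the rows by the stage of the highest mean: oocyte (9), 2-cell (12), 8-cell (17) and blastocyst (10). All 1-cell columns are darker than every other column of the row for 30 members, and the 1-cell mean is the lowest for 47. Rpl22 stays bright through the dip, and E030030I06Rik has its lowest mean in blastocysts.

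After the 2-cell stage the members parted. The highest stage mean was in oocytes for 9 members, in 2-cell embryos for 12, in 8-cell embryos for 17 and in blastocysts for 10. The lowest was at the 1-cell stage for 47, and E030030I06Rik was lowest in blastocysts. At the 8-cell stage 14 members were at least 1 above their 2-cell mean, against 9.07% of single-symbol probe sets, and 9 were at least 1 below it, against 10.1%. The highest 8-cell minus 2-cell differences were those of Mrps10 (3.26), Eif4h (2.86), Rpl22 (2.76), Uggt1 (2.43) and Abhd17a (1.96). The lowest were those of Cggbp1 (-2.28), Sdhaf3 (-1.58), Epha10 (-1.33), Ercc1 (-1.27) and Iqcg (-1.12). The 2-cell arrays were used to choose the members, so these differences are not tested.

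Measured against the oocyte, the 8-cell mean was at least 1 higher for 20 members and at least 1 lower for 7, against 14.1% and 12.8% of single-symbol probe sets. In blastocysts 14 members were at least 1 above the oocyte and 12 at least 1 below, against 14.1% and 11.9%. Mrps10 stood 18.2 times its oocyte mean in blastocysts, Rpp40 7.95 times and Psmb5 7.86 times. Dcdc2c stood at 0.077 times and Iqcg at 0.123 times their oocyte means. Both the 8-cell and the blastocyst mean lay at least 1.5 above the 1-cell mean for 31 members, against 5.4% of single-symbol probe sets. All 8-cell arrays lay above all 1-cell arrays for 38 members, against 17.8% of single-symbol probe sets, and all blastocyst arrays did for 37, against 17.6%. The low 1-cell arrays on one side of the counts against the 1-cell stage chose the members, so nothing is read from those counts. The oocyte arrays took part in the choice too, so nothing is read from the counts against the oocyte either.

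The 8-cell and blastocyst arrays took no part in the choice of members, and the question they answer is whether the members moved on together from cleavage to the blastocyst. The members went both ways: 7 were higher in blastocysts than in 8-cell embryos and 15 were lower, while 25 did not pass the test and Gm14057 was too dim to be tested. The test was limma's moderated test over all 20 arrays and 15234 probe sets, with Benjamini-Hochberg adjustment and an adjusted p under 0.05 called. Of the 47 members tested, 14.9% were called higher, against 7.98% of all tested probe sets, and 31.9% were called lower, against 6.58%. The median blastocyst minus 8-cell difference was -0.26 over the members and -0.07 over all tested probe sets. The members were also brighter, with a median log2 of 9.69 against 7.34 for all tested probe sets at the 8-cell stage, and 8.95 against 7.29 in blastocysts. The units differ too, since each member stands for a different gene, while the tested probe sets include several of the same gene and those without a gene symbol. The part of brightness and of this difference in the shares called was not tested. The count of members called higher was 4 without 8-cell replicate 3, 4 without 8-cell replicate 4 and 4 in a fit without the intensity trend. A blastocyst has an outer epithelium, the trophectoderm, around its inner cells, and in these whole embryos a change in the share of a cell type and a change in RNA per cell cannot be told apart.

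Among the members that rose, Naxe changed most clearly. It read 2263, 2068, 2020.4 and 2695 on the blastocyst arrays, against 724, 638.5, 748 and 576 on the 8-cell arrays, a log2 difference of 1.72 ± 0.15 (SE, limma adjusted p = 1.44e-08). The groups lay far apart, and the blastocyst mean was back above the oocyte mean of 1825. Nsd3 read 946, 266, 293 and 634 in blastocysts, against 50.6, 239, 86.9 and 234 in 8-cell embryos, a difference of 1.71 ± 0.39 (SE, limma adjusted p = 0.00301). The spread within both stages was wide for Nsd3, with the lowest blastocyst array just above the highest 8-cell array. Psmb5 read 10605, 9906, 11639 and 9269.8 in blastocysts, against 6161, 7128.5, 5121 and 6189 in 8-cell embryos, a difference of 0.75 ± 0.18 (SE, limma adjusted p = 0.00364). Every blastocyst array of Psmb5 stood above every 8-cell array. Abhd17a rose by 0.85 ± 0.27 (SE, limma adjusted p = 0.0338), Cnot10 by 0.69 ± 0.20 (SE, limma adjusted p = 0.0212) and Kctd6 by 0.65 ± 0.21 (SE, limma adjusted p = 0.0407). The adjusted p of these last 3 passed 0.05 with single arrays left out: Abhd17a without 8-cell replicate 3 or 4 or blastocyst replicate 1, 2 or 3 (up to 0.107), Kctd6 without 8-cell replicate 2, 3 or 4 or blastocyst replicate 1, 2 or 4 (up to 0.156), and Cnot10 without 8-cell replicate 3 or 4 or blastocyst replicate 3 (up to 0.0659). Each of the 7 had blastocyst arrays that all stood above the 8-cell arrays, and the seventh was Rfc2 with a difference of 1.75 ± 0.33 (SE, limma adjusted p = 4.49e-04), whose x_at probe set is outside the rule for named genes.

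The called falls spanned log2 differences between -0.54 for Krr1 and -2.67 for Dhtkd1. Dhtkd1, the largest, read 180.2, 117, 103 and 157 on the blastocyst arrays, against 979, 987, 1142 and 819 on the 8-cell arrays, a log2 difference of -2.67 ± 0.33 (SE, limma adjusted p = 1.67e-06). Its blastocyst arrays overlapped its 1-cell arrays. Map7d2 read 278, 158.5, 255 and 279 in blastocysts, against 988, 1075, 717 and 1177 in 8-cell embryos, a difference of -1.95 ± 0.34 (SE, limma adjusted p = 1.68e-04). Rab11fip1 read 425, 424.5, 351 and 483 in blastocysts, against 1810.1, 2033, 929 and 1517 in 8-cell embryos, a difference of -1.80 ± 0.24 (SE, limma adjusted p = 6.27e-06). The blastocyst arrays of Map7d2 and of Rab11fip1 all stood below the 8-cell arrays of the same gene. Iqcg read 8.2, 11.2, 5.1 and 7.8 in blastocysts, against 150.4, 24.3, 105 and 111 in 8-cell embryos, a difference of -1.91 ± 0.37 (SE, limma adjusted p = 6.00e-04). Pik3ip1 read 100.5, 23, 36.2 and 24.5 in blastocysts, against 177, 122, 102 and 197 in 8-cell embryos, a difference of -1.46 ± 0.36 (SE, limma adjusted p = 0.00571), and its blastocyst replicate 1 almost reached the lowest 8-cell array. Wdr73 differed by -1.05 ± 0.31 (SE, limma adjusted p = 0.0212), Smim4 by -0.995 ± 0.20 (SE, limma adjusted p = 0.00107), Psmc3ip by -0.90 ± 0.26 (SE, limma adjusted p = 0.0186), Dscc1 by -0.94 ± 0.29 (SE, limma adjusted p = 0.0314), Cggbp1 by -0.87 ± 0.19 (SE, limma adjusted p = 0.00228) and Krr1 by -0.54 ± 0.15 (SE, limma adjusted p = 0.0127). The call was lost for Wdr73 without 8-cell replicate 1 or blastocyst replicate 4 (adjusted p up to 0.101), and for Psmc3ip without 8-cell replicate 1 or 3 or blastocyst replicate 2 (up to 0.0722). It was lost for Dscc1 without any single 8-cell replicate or without blastocyst replicate 2 or 3 (up to 0.106).

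Of the 15 lower members, the other 4 were Snupn, Cmss1, E030030I06Rik and Urod, which lie outside the rule for named genes. Snupn, which escorts spliceosomal small nuclear ribonucleoproteins into the nucleus, differed by -1.46 ± 0.18 (SE, limma adjusted p = 1.27e-06). For 14 of the 15 all blastocyst arrays stood below all 8-cell arrays, Urod being the exception. The calls of E030030I06Rik and Urod were lost with single arrays left out: without 8-cell replicate 2 or 4 or blastocyst replicate 4 for the clone (adjusted p up to 0.151), and without 8-cell replicate 1, 2 or 4 or blastocyst replicate 2, 3 or 4 for Urod (up to 0.131). Several members with strong differences at earlier stages did not pass this test. Mrpl43 had a blastocyst minus 8-cell difference of 0.11 ± 0.19 (SE, limma adjusted p = 0.777), Rpl22 one of -0.26 ± 0.21 (SE, limma adjusted p = 0.481), Pfdn6 one of -0.30 ± 0.18 (SE, limma adjusted p = 0.328) and Rpp40 one of 0.30 ± 0.27 (SE, limma adjusted p = 0.545).

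**Figure D4:**
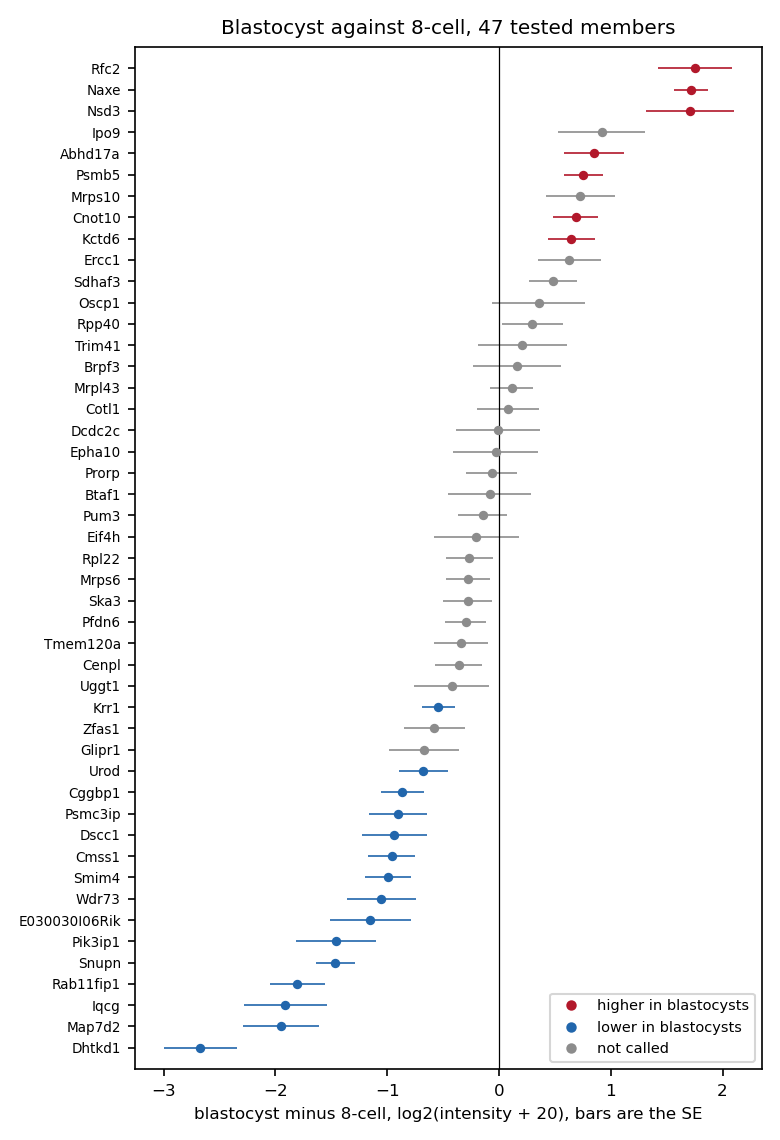
Blastocyst minus 8-cell difference in log2(intensity + 20) for the 47 tested members, with bars of 1 SE from limma, ordered by size. The 7 called higher lie to the right of 0 and the 15 called lower to the left, between Rfc2 at 1.75 and Dhtkd1 at -2.67.

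The gene lists show what was measured around the members, and their counts are set beside 7.98% called higher and 6.58% called lower over all tested probe sets. The units differ, since each list gene was counted once, by its tested probe set with the highest mean over the arrays. The background counts every tested probe set, dimmer ones of the same gene and those without a gene symbol included. A list share above the background is therefore not read as a trait of the list. Of 49 tested genes for the mitochondrial ribosome and respiratory chain, 6 (12.2%) were higher in blastocysts than in 8-cell embryos and 0 lower by limma, with 8 and 1 at an unadjusted p under 0.05. None of its 4 members was among the 6. Of 59 tested DNA replication and repair genes 8 (13.6%) were higher and 9 (15.3%) lower, and of the members Rfc2 was higher while Psmc3ip and Dscc1 were lower. Of 226 proteasome and ubiquitin genes 27 (11.9%) were higher and 17 (7.52%) lower, with the members Psmb5 and Kctd6 among the higher ones. Of 53 ribosome biogenesis genes 1 (1.89%) was higher and 13 (24.5%) lower, Krr1 among these 13, at a median difference of -0.36. Of 59 genes of mRNA decay, deadenylation and poly(A) control 10 (16.9%) were higher and 10 were lower. Cnot10 was not among the higher ones in this count, which used its brighter probe set 1459756_at, at a difference of 0.10 and not called. Translation factors and chaperones had 8 (10.5%) higher and 11 (14.5%) lower of 76, and chromatin modifiers 16 (14%) higher and 14 (12.3%) lower of 114. Centrosome, spindle and cell division genes had 20 (16.3%) higher and 16 (13%) lower of 123, Rab and vesicle traffic genes 32 (20.5%) and 16 (10.3%) of 156, and nuclear transport genes 3 (8.33%) and 1 (2.78%) of 36. The shares called lower among proteasome and ubiquitin genes and called higher among nuclear transport genes lay near those over all tested probe sets.

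In terms of membership, proteasome and ubiquitin genes supplied 3 members of 272 genes measured, translation factors and chaperones 2 of 93, and centrosome and spindle genes 2 of 151. Ribosome biogenesis supplied 1 of 61, mRNA decay 1 of 70, nuclear transport 1 of 45, Rab and vesicle traffic 1 of 185, chromatin modifiers 1 of 126 (0.794%, beside 0.5% over all genes) and cytosolic ribosomal proteins 1 of 3. There was no member among 61 splicing genes, 279 Zfp zinc finger genes, 168 solute carriers or 42 oocyte and maternal-effect genes. These membership counts were not tested. The blastocyst against 8-cell test called 8 splicing genes (14%) higher and 3 (5.26%) lower of 57, 26 Zfp genes (11.2%) higher and 24 (10.3%) lower of 233, 20 solute carriers (15.7%) higher and 9 (7.09%) lower of 127, 4 oocyte genes (10.3%) higher and 14 (35.9%) lower of 39, and 1 of 2 cytosolic ribosomal protein genes lower.

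None of the 42 oocyte and maternal-effect genes was a member, and their probe sets went both ways at the 1-cell stage. Of 50 probe sets, 25 read lower in 1-cell embryos than in oocytes and 25 higher, with a median difference of 0.01 on the log2 scale. For 6 genes (Fbxw13, Gtsf1, Fbxw17, Khdc3, Padi6 and Fbxw21) a probe set was at least 1.5 lower, and none of these came back at the 2-cell stage. Khdc3, a protein of the subcortical maternal complex, had stage means of 2305 in oocytes, 575 in 1-cell embryos and 396.1 in 2-cell embryos. It then stood at 3707 in 8-cell embryos and 20822 in blastocysts, above its oocyte mean. Padi6, of the same complex, had means of 18815, 5731, 1920, 671 and 140 from oocyte to blastocyst. Oosp3, Zar1, Nlrp4f and Bmp15 had higher means in 1-cell embryos than in oocytes. Oosp3, an oocyte-secreted protein, had stage means of 26313 in oocytes, 34275 in 1-cell embryos, 17702.5 in 2-cell embryos, 443 in 8-cell embryos and 282.6 in blastocysts. Zar1, a maternal-effect gene, had means of 13194, 14685, 1189.5, 464.6 and 309 over the same stages, and Nlrp4f had 11536, 16605.5, 13333, 138.1 and 312. For the 1420005_s_at probe set of the oocyte growth factor Bmp15 the means were 2793, 4103, 2246, 45.1 and 13.4, and for the oocyte kinase Wee2 (1436751_at) they were 10036, 8774, 11735, 106.2 and 28.4. A second probe set of Wee2, of the x_at type, read 11511 in 1-cell embryos against 7956 in oocytes, the other direction from 1436751_at. Pabpn1l, an oocyte poly(A)-binding protein, was lower in 1-cell embryos and went on down, at 4518, 1624, 23.2, 15.2 and 10.4.

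Most other probe sets of the member genes did not dip by as much. There were 34 other single-symbol probe sets for 22 of the member genes, and 22 of the 34 read lower at the 1-cell stage than in both the oocyte and the 2-cell embryo, against 31.2% of all single-symbol probe sets. Only 4 did so by at least 1 on the log2 scale, one each for Snupn, Abhd17a, Btaf1 and Gm14057. The Abhd17a probe set 1442883_s_at had stage means of 488.8 in oocytes, 160.3 in 1-cell embryos and 413 in 2-cell embryos. The Btaf1 probe set 1435248_a_at had 208.2, 66.6 and 786 at these stages. For the 1452808_at probe set of Snupn the means were 3399, 1219 and 4352. None of the 5 other Nsd3 probe sets had a dip of that size, and one of them, 1442085_at, had means of 525, 443.4 and 717.3. The Cmss1 probe set 1430423_s_at had means of 271.3, 262 and 413.3, and the Dscc1 probe set 1436583_at had 103.8, 110.1 and 141.4. In the test that the rule did not use, 20 other probe sets of 12 called members were tested: 4 were called the same way as the member, 2 the other way and 14 were not called, 8 of these with the member's sign and 6 with the opposite sign. Those of Snupn (1452808_at, -0.98), Wdr73 (-1.11) and Map7d2 (-1.76) were called lower in blastocysts than in 8-cell embryos, as their members were, and that of Rfc2 (1.78) was called higher, as its member was. Uncalled probe sets with the opposite sign to their members included those of Krr1 (0.28), Dscc1 (0.27) and Rab11fip1 (0.15), and none of the 3 of Cnot10, the 2 of Cmss1 or the 1 of Pik3ip1 was called. The Abhd17a probe sets went apart: 1442883_s_at, at 0.61 and an adjusted p of 0.0707 by limma, was not called, and 1458474_at, at -0.66 and an adjusted p of 0.038, was called lower where the member was called higher. Likewise the Nsd3 probe set 1442085_at, at -0.48 and an adjusted p of 0.042, was called lower where the member was called higher.

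The 112 probe sets that were lost at the 1-cell stage without return give the nearest contrast to the members. Their median intensities were 909.0 in oocytes, 221.7 in 1-cell embryos, 171.5 in 2-cell embryos, 113.3 in 8-cell embryos and 133.3 in blastocysts. Both later stages lay at least 1.5 above the 1-cell mean for 31 of 48 members and for 7 of these 112. The 1-cell arrays helped to choose both sets, and their 1-cell medians differed, at 6.25 for members and 7.84 for the lost on the log2 scale. Nothing is therefore read from the counts of 31 and 7. From the 8-cell embryo to the blastocyst, 14.9% of tested members were called higher and 31.9% lower, against 27.5% and 5.50% of the 109 lost probe sets that were tested. The median blastocyst minus 8-cell difference was -0.26 for members and 0.19 for the lost probe sets. The difference between both sets was not tested.

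Some features of the arrays moved with the dip. The control probe set for the middle of 18S ribosomal RNA read 398.1 to 850 on the oocyte arrays, 32272 to 42928.5 on the 1-cell arrays, 1578 to 2283 on the 2-cell arrays, 2010 to 3808 on the 8-cell arrays and 1931 to 3023 on the blastocyst arrays. Its part in the members' values was not tested. The median intensity of an array was 69.2 to 77.8 at the 1-cell stage and 67.8 to 80.2 in oocytes. The log2 ratio of the 3′ to the 5′ actin control was 2.31 to 2.52 in oocytes, 1.43 to 2.32 in 1-cell embryos, 2.07 to 2.64 in 2-cell embryos, 1.86 to 2.08 in 8-cell embryos and 0.68 to 1.25 in blastocysts. The same ratio for Gapdh was 1.82 to 2.21 in oocytes, 1.86 to 2.45 in 1-cell embryos, 1.80 to 2.61 in 2-cell embryos, 0.68 to 1.57 in 8-cell embryos and 1.75 to 2.88 in blastocysts. The Gapdh ranges of the oocyte, 1-cell and 2-cell arrays overlapped, and from the 8-cell embryo to the blastocyst the ratios of actin and Gapdh went opposite ways. The part of these ratios in the members' values was not tested. Summed over its 12 measured genes, the cumulus and granulosa marker list read 2312 to 2801 in oocytes, 2307.5 to 2537 at the 1-cell stage and 4985 to 6173 at the 2-cell stage, where Amhr2 supplied most of the excess through x_at probe sets. The 11 sperm and spermatid genes summed to 1700 to 1862 at the 1-cell stage and 1537.5 to 1886 in oocytes, and the 3 blood and reproductive tract genes to 330.1 to 534.1 and 573.2 to 755.1. None of these genes was a member or at an intensity of 0. The 7 trophectoderm and epithelium genes summed to 13736 to 19012.5 in blastocysts, against 1909 to 2351 in 8-cell embryos, and their part in the blastocyst differences was not tested.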

How the data were processed

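Expression was measured on 20 arrays of 5 stages, and stages and replicate numbers came from the sample titles. The authors deposited 1 linear intensity per probe set, for 22575 probe sets with 64 controls. Their mean, trimmed by 2% at each end, is the same on every array (149.95 to 149.97), so the authors had scaled each array. Scanner software and probe summarization were not given in the sources used here. The table holds no detection calls. The number of arrays limits the precision. Array design names were updated through Entrez identifiers in a RefSeq table (14486 of 14661 single-symbol probe sets found, all 48 members among them). Of all 22511 probe sets 65 met the limits, and the 7 without a symbol and the 10 with several were left out.

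Intensities were transformed to log2(value + 20), which understates the change of low genes. The test took 15234 probe sets that reached the table median, 82.6, on 4 or more arrays. A model of the 5 stage means was fitted with limma 3.58.1 under R 4.3.3, with 15 residual degrees of freedom and an intensity trend, and the script was tested on simulated data. Promoters came from RefSeq (GRCm38.p6). The members, the gene lists and the tests were chosen with earlier results of these data known. The pattern for proteasome names was corrected after the files were seen, which took Psmc3ip off that list.

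Named are the 20 deepest dips with arrays apart, the 6 largest called rises and falls from 8-cell to blastocyst with arrays apart, up to 4 members of each list with at least 3, the 5 extremes at each end of 2-cell minus oocyte and of 8-cell minus 2-cell, and the 3 probe sets nearest each side of the limits. Probe sets of the x_at type and clone names were left out of this rule. Alternatives covered the pseudocount, the limits, normalization, filter, trend, array weights, stages fitted, a replicate block, probe set types and each array left out.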

Additional observations from a re-analysis of the deposited data

Results flagged for a closer look

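Single arrays that stood far from the other 3 of their stage, by Dixon's ratio against its critical value, were found for 7 of the 35 named genes, in 10 of 175 groups of 4 arrays. Chance flags about 1 in 20 such groups. Epha10 had 3 of the 10: its oocyte replicate 3 read 121.9 with the nearest other array at 208.5, its 1-cell replicate 4 read 134.1 with the nearest at 37, and its blastocyst replicate 3 read 166.6 with the nearest at 48.6. Rpp40 had its 8-cell replicate 4 at 1451.9, with the nearest at 1218, and its blastocyst replicate 1 at 1896.4, with the nearest at 1459. At the 2-cell stage replicate 3 stood out for Pum3, at 5458.6 against 3396.5 for the nearest, and for Kctd6, at 765.2 against 561. The 1-cell replicate 3 of Map7d2 read 94.7 and the nearest array 19.1. The blastocyst replicate 1 of Pik3ip1 read 100.5 and the nearest array 36.2. The 8-cell replicate 3 of Btaf1 read 1987.5 and the nearest array 1297.4. By stage there were 1 in oocytes, 2 in 1-cell embryos, 2 in 2-cell embryos, 2 in 8-cell embryos and 3 in blastocysts.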

How the results depend on the processing

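The number of members depends on the scale and the limits: 86 with a pseudocount of 5, 17 with 80, 165 with limits of 1 and 14 with limits of 2, where 48 were found with 20 and 1.5. It was 36 after quantile normalization (34 of the 48 among them), 61 with stage medians (45 of the 48), 44 where the 1-cell arrays had to lie below all oocyte and 2-cell arrays, and 36 without x_at and s_at probe sets. Leaving out 1 array at a time gave 43 to 60. The count of members higher in blastocysts than in 8-cell embryos was 7 in the reported fit, 4 without the intensity trend and 4 to 8 with 1 array left out. The count lower was 15 in the reported fit and 11 to 15 with 1 array left out. Of the 22 called members, 13 stayed called under each of the 30 alternatives in which they were tested, 9 lost the call under at least 1, and 0 changed direction. Those 9 were Abhd17a, Kctd6, Cnot10, Krr1, Wdr73, Psmc3ip, Dscc1, E030030I06Rik and Urod, and the cause was not tested. Same-numbered 8-cell and blastocyst arrays did not deviate together (correlations of -0.030, -0.016, -0.030 and -0.018), so the replicate numbers give no pairing, and with a replicate block 6 members were higher and 15 lower. The absence of detection calls limits what can be said of dim probe sets.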
